A study of Homo sapiens with 4 samples.

Results

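The miR-130, miR-301 and miR-454 family is a group of human miRNAs that share a seed, and it was examined in extracellular vesicles (EVs) of MDA-MB-231 cells. MDA-MB-231 is an established line of human triple-negative breast cancer. The 5 members taken were hsa-miR-130a-3p, hsa-miR-130b-3p, hsa-miR-301a-3p, hsa-miR-301b-3p and hsa-miR-454-3p, of 1619 miRNAs listed in all. They were chosen by name and seed, after hsa-miR-130a-3p had been seen to be higher in EVs of cells without glucose, to ask whether that rise was shared. The values of EVs without against EVs with glucose are therefore given as a description, with no test of a member. Small RNA was sequenced in 4 libraries, 2 of each medium. Control EV libraries came from wild-type cells held in EV-free DMEM, and -G EV libraries from the same wild-type line held in glucose-free medium, each for 12 h, after growth in DMEM with serum. The labels, and with them the plots, mark these groups EV and -G EV after the short name of the line. In both groups, EVs were pelleted by ultracentrifugation. The libraries of replicate 1 came from RNA pretreated to remove end groups and methylations that block library construction, with inserts of 14 to 40 nt, while an NEBNext multiplex kit served for those of replicate 2. Each replicate number thus stood for 1 control EV and 1 -G EV library prepared alike, and the replicates may differ in more than their preparation, which these data cannot tell apart. Nothing in the labels says that replicates were separate cultures, so their spread may be technical. The tables hold miRNAs, and the cell line was not checked against marker genes.

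A mature miRNA guides an Argonaute protein to messenger RNAs, mostly through pairing of its seed, bases 2 to 8, with sites in the target. Members of a seed family can therefore share targets, while the rest of the sequence and the gene they come from differ. For this family, receptors and SMADs of the TGF-beta pathway are among the targets known from other work. Its members are also known as regulators of vessel growth, of stiff extracellular matrix and of breast cancer invasion. In pooled EV RNA, fewer EVs that carry a miRNA and fewer copies in each EV cannot be told apart.

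Mature sequences were taken from RefSeq (GRCh38.p14), where 4 of the 5 members matched by name. They are shown 5′ to 3′ because what the members share, and where they part, bears on how reads were assigned to them. Capitals mark the seed.
hsa-miR-130b-3p: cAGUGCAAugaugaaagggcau
hsa-miR-301a-3p: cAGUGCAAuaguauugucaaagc
hsa-miR-301b-3p: cAGUGCAAugauauugucaaagc
hsa-miR-454-3p: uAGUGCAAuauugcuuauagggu

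All 4 had the seed AGUGCAA. Of the 2370 mature miRNAs of that table, 6 had it, and the remaining 2 were hsa-miR-3666 and hsa-miR-4295. Hsa-miR-301a-3p and hsa-miR-301b-3p, both of 23 nt, differed at 2 positions counted from the 5′ end, A10G and G11A. Hsa-miR-130b-3p and hsa-miR-301b-3p were identical over their first 12 bases, then differed at 9 positions. Hsa-miR-454-3p was the member with U in place of C as its first base, given as C1U against hsa-miR-301a-3p. Short reads, or reads with errors at positions 10 and 11, could have been split between the miR-301 members. Hsa-miR-130a-3p was the member without a match by name, so its sequence was not compared. Whether its reads could have been split with those of hsa-miR-130b-3p, or of another member, was not checked.

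The genes lie at 3 places in GRCh38, by RefSeq and GENCODE 29. MIR130A (57641198 to 57641286, plus strand) stands on chromosome 11, within introns of a sense-overlapping transcript, AP000662.1. MIR301B (21652981 to 21653058) and MIR130B (21653304 to 21653385) stand 245 bases apart on the plus strand of chromosome 22, both over the non-coding AP000553.1, in an intron and in an exon respectively. MIR454 (59137758 to 59137872) and MIR301A (59151136 to 59151221) stand 13263 bases apart on the minus strand of chromosome 17. Both are in introns of SKA2, a gene whose protein helps kinetochores to hold microtubules.

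The libraries were shallow, with 18397 reads (control EV) and 15597 reads (-G EV) in replicate 1, and deeper in replicate 2, with 224966 and 170894. The level of a miRNA is its count divided by the library total, times 1000000 (CPM), without a length term, since members were 22 or 23 nt long. A count of 3 reads, the limit that a count of 0 allows, came to 163 and 192 CPM in replicate 1 and to 13.3 and 17.6 CPM in replicate 2. Intervals are 95% intervals, Wilson for levels and shares and exact conditional for ratios. They cover counting error only, because PCR copies of a molecule were not marked by identifiers and count as separate reads. In replicate 1, hsa-miR-182-5p held 51.0% of control EV and 2.73% of -G EV, which raised the level of every other miRNA of -G EV relative to control EV. Ratios of replicate 1 are therefore also given with it out of the totals.

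In replicate 2, the deeper pair, hsa-miR-130a-3p and hsa-miR-130b-3p were about 3 to 4 times higher in -G EV, and the pair from the SKA2 introns was not. Hsa-miR-130a-3p, known for driving endothelial growth by repressing homeobox factors, had 265 reads in control EV and 796 in -G EV. Its level was 1178 CPM (1044 to 1328) in control EV and 4658 CPM (4346 to 4992) in -G EV. The ratio was 3.95, with an interval of 3.44 to 4.56. It ranked 70 among the miRNAs of control EV and 31 among those of -G EV.

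The chromosome 22 locus went the same way. Hsa-miR-130b-3p, which has been tied to invasion in carcinomas, had 101 reads in control EV and 237 in -G EV, or 449 CPM (370 to 545) and 1387 CPM (1221 to 1575). Its ratio was 3.09 (2.44 to 3.94). Its neighbour hsa-miR-301b-3p was close to the limit of detection, with 2 reads in control EV and 7 in -G EV, or 8.89 CPM (2.44 to 32.4) and 41.0 CPM (19.8 to 84.6). The ratio of 4.61 had an interval of 0.877 to 45.5, which holds both no change and a large one. Summed over the locus, 103 reads stood against 244, a ratio of 3.12 (2.47 to 3.97). Nearly all of these reads were those of hsa-miR-130b-3p.

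The chromosome 17 locus went the other way. Hsa-miR-454-3p had 206 reads in control EV and 106 in -G EV, or 916 CPM (799 to 1049) and 620 CPM (513 to 750). The ratio was 0.677, with an interval of 0.531 to 0.860. Hsa-miR-301a-3p, known as an activator of NF-kB signalling through repression of NKRF, had 103 and 68 reads, or 458 CPM (378 to 555) and 398 CPM (314 to 504). Its ratio of 0.869 had an interval of 0.630 to 1.19, which included no change. Summed over both, the ratio was 0.741 (0.612 to 0.895). Apart from hsa-miR-130a-3p, whose rise led to the choice of the family, the interval lay above 1 for 1 of 4 members and below 1 for 1 of 4. Of the 618 miRNAs with a read in replicate 2, many of them with few reads, it lay above 1 in 11.3% and below 1 in 11.2%.

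**Figure D1:**
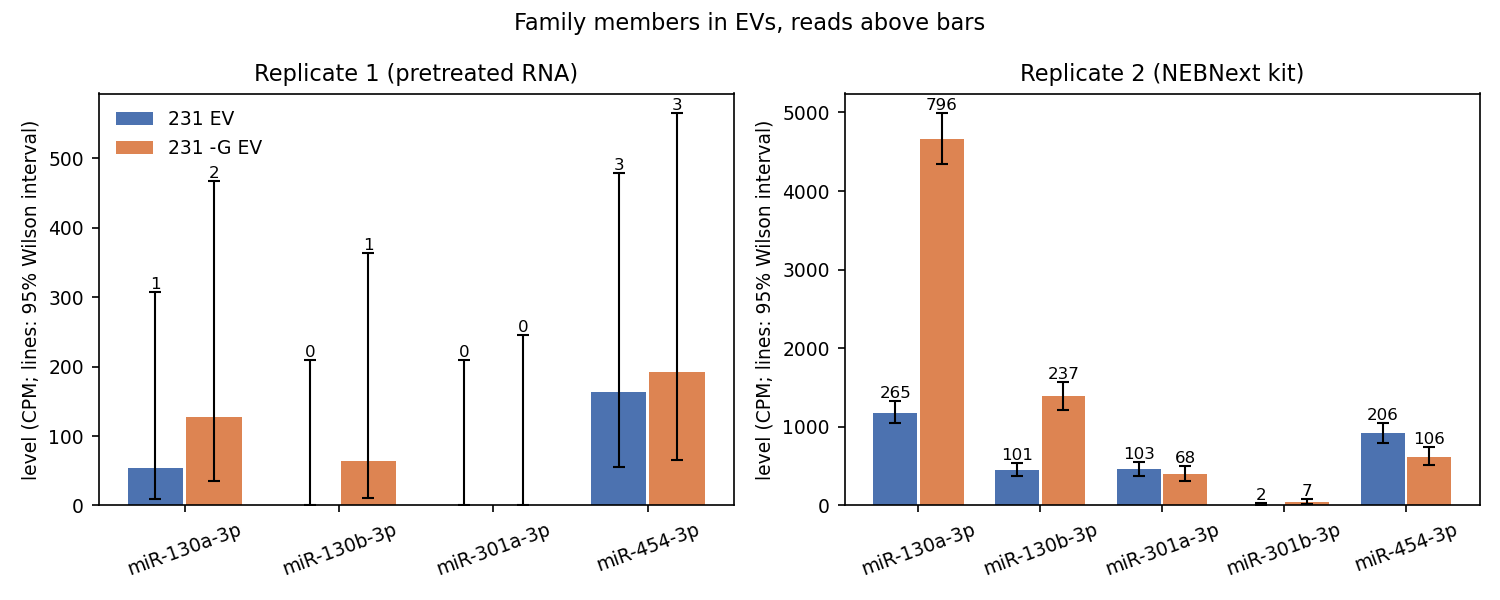
Levels of the family members in CPM, for replicate 1 (left) and replicate 2 (right), with control EV in blue and -G EV in orange. Lines are 95% Wilson intervals and the number over each is its reads. In replicate 2 the -G EV bar stands higher for miR-130a-3p and miR-130b-3p and lower for miR-454-3p, while no member had more than 3 reads in replicate 1.

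As a whole the family held 677 of the reads of control EV and 1214 of those of -G EV in replicate 2, or 0.301% (0.279 to 0.324) and 0.710% (0.672 to 0.751). The ratio of these sums was 2.36 (2.15 to 2.60). Most of it came from hsa-miR-130a-3p, since the other 4 members had 412 and 418 reads and a ratio of 1.34 (1.16 to 1.53). A rise of the sum over these 4 thus joined movements in both directions.

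The make-up of the family, which does not depend on the library total, differed between the libraries of replicate 2. Hsa-miR-130a-3p made up 39.1% (35.5 to 42.9) of the family reads of control EV and 65.6% (62.9 to 68.2) of those of -G EV. Hsa-miR-130b-3p made up 14.9% (12.4 to 17.8) and 19.5% (17.4 to 21.8). The shares of the chromosome 17 members were smaller in -G EV. Hsa-miR-454-3p went from 30.4% (27.1 to 34.0) to 8.73% (7.27 to 10.5), and hsa-miR-301a-3p from 15.2% (12.7 to 18.1) to 5.60% (4.44 to 7.04). Hsa-miR-301b-3p held under 1% in each. All these shares count hsa-miR-130a-3p in their base, and its rise, which led to the choice of the family, lowers the shares of the others. With hsa-miR-130a-3p left out, hsa-miR-130b-3p held 24.5% in control EV and 56.7% in -G EV. On that base hsa-miR-454-3p held 50% and 25.4%, and hsa-miR-301a-3p held 25% and 16.3%.

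**Figure D2:**
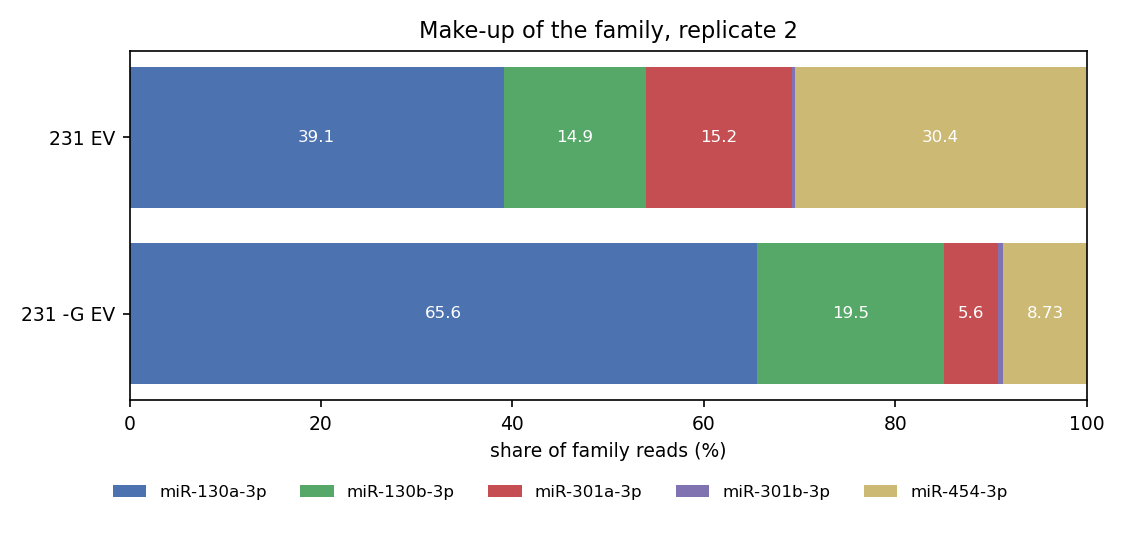
Share of each member in the family reads of the replicate 2 libraries, in percent, as horizontal stacked bars for control EV (top) and -G EV (bottom). The miR-130a-3p share is 39.1% in control EV and 65.6% in -G EV, and that of miR-454-3p is 30.4% and 8.73%.

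The order of the members changed with it. In control EV of replicate 2 the order was hsa-miR-130a-3p, hsa-miR-454-3p, hsa-miR-301a-3p, hsa-miR-130b-3p and hsa-miR-301b-3p. The first had 1.29 times the reads of the second (1.07 to 1.55), and the second had 2 times those of the third (1.57 to 2.56). Hsa-miR-301a-3p and hsa-miR-130b-3p could not be ordered, with a ratio of 1.02 (0.767 to 1.36). In -G EV, hsa-miR-130b-3p came second, ahead of hsa-miR-454-3p, at 2.24 times its reads (1.77 to 2.84). Hsa-miR-130a-3p stood 3.36 times above hsa-miR-130b-3p (2.90 to 3.90) and 7.51 times above hsa-miR-454-3p (6.13 to 9.29). The ratio of hsa-miR-454-3p to hsa-miR-301a-3p, both of the SKA2 introns, was 1.56 (1.14 to 2.15) in -G EV, and its interval overlapped that of control EV. Adapter ligation differs between sequences, so that such orders are those of reads and need not be those of molecules.

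To place the members among all miRNAs of replicate 2, the 127 with at least 100 reads over the pair were taken, predicted ones included, a depth chosen after the values were seen. Their median ratio was 1.03, with quartiles of 0.697 and 1.48, and 51.2% were above 1. Hsa-miR-130a-3p and hsa-miR-130b-3p had the third and the fourth highest ratio of the 127. Hsa-miR-301a-3p ranked 78 and hsa-miR-454-3p ranked 99 from the top. The median ratio of these 4 members, hsa-miR-130a-3p included, was 1.98, a value that none of them had, since 2 lay far above it and 2 below 1.

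**Figure D3:**
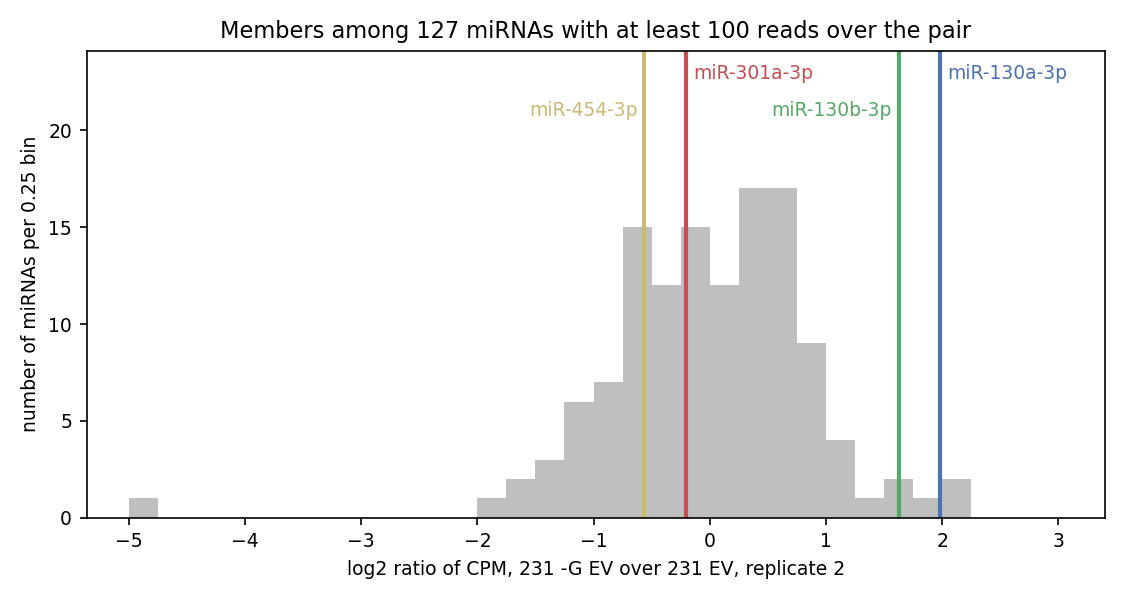
Log2 ratio of CPM, -G EV over control EV, for the 127 miRNAs of replicate 2 with at least 100 reads over the pair, as a histogram of the number of miRNAs per bin, with lines at the 4 members of that depth. The miR-130a-3p and miR-130b-3p lines stand at the right end, at ranks 3 and 4, and those of miR-301a-3p and miR-454-3p within the bulk.

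In replicate 1 the family was barely seen. It had 4 reads in control EV and 6 in -G EV, or 0.0217% (0.00846 to 0.0559) and 0.0385% (0.0176 to 0.0839) of the reads. Hsa-miR-301b-3p was not listed for this replicate. Hsa-miR-301a-3p had 0 reads in both libraries, and hsa-miR-130b-3p had 0 in control EV and 1 in -G EV, so that no ratio is given for either.

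Hsa-miR-130a-3p had 1 read in control EV and 2 in -G EV of replicate 1, or 54.4 CPM (9.60 to 308) and 128 CPM (35.2 to 467). The ratio of 2.36 had an interval of 0.123 to 139, which held a fall, no change and the ratio seen in replicate 2. Totals that leave out hsa-miR-182-5p gave 1.19, and TMM gave 1.31, a scaling that trims extreme miRNAs. Hsa-miR-454-3p had 3 reads in each library, 163 CPM (55.5 to 479) and 192 CPM (65.4 to 565), and a ratio of 1.18 (0.158 to 8.81). That ratio turned to 0.594 with totals that leave out hsa-miR-182-5p, and to 0.657 under TMM. The ratio of the family sum was 1.77 (0.420 to 8.52), and it was 0.892 and 0.985 under the same settings. Of all 670 miRNAs with a read in replicate 1, 13.0% had an interval that excluded 1, beside 0 of the 4 members listed there, for which this depth showed no direction.

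**Figure D4:**
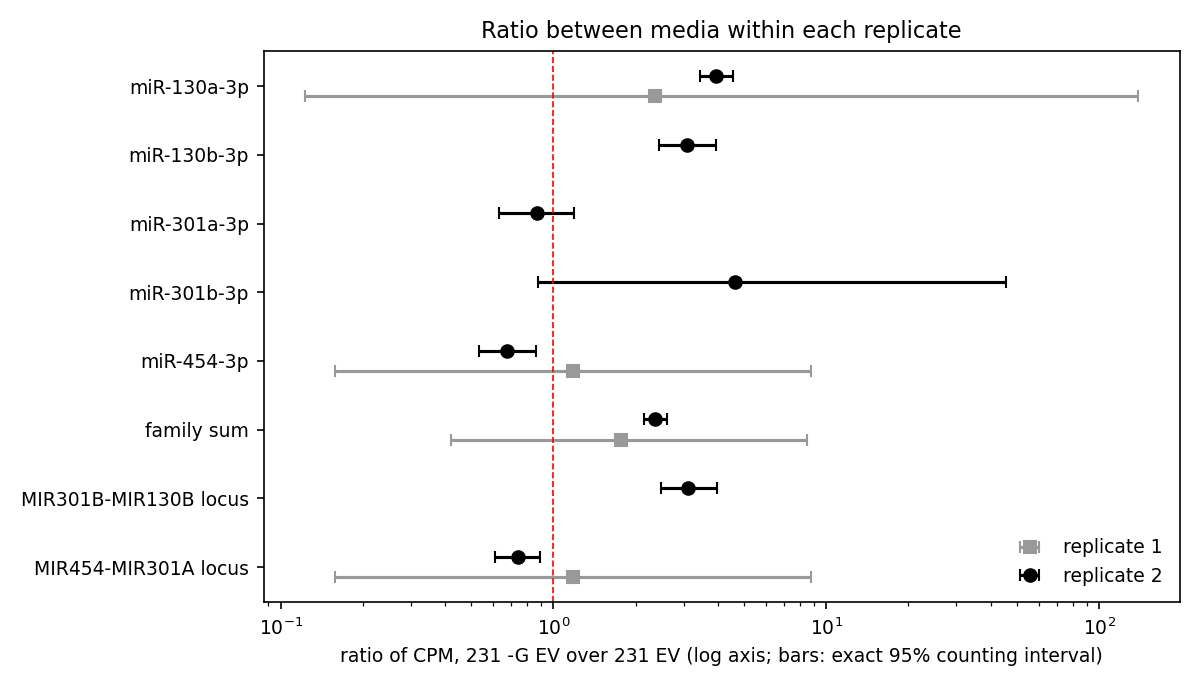
Ratio of CPM, -G EV over control EV, on a log axis, for members, the family sum and both loci, with exact 95% intervals of counting error. Circles are replicate 2 and squares are replicate 1, shown where both libraries of the pair had reads, and the dashed line marks no change. In replicate 2 the interval lies above 1 for miR-130a-3p and miR-130b-3p and below 1 for miR-454-3p, while each interval of replicate 1 spans 1.

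For its overlap with target predictions, the study took a miRNA as enriched above a fold of 1.5. Its methods also give a log2 fold change above 1 in size with a false discovery rate under 0.05, by DESeq2. Here the fold of 1.5 was asked of both pairs, on CPM plus 1. Hsa-miR-130a-3p, with folds of 2.33 and 3.95, and hsa-miR-130b-3p, with 65.1 and 3.08, were higher in both, which is 2 of the 4 members listed for both replicates. Of all 539 miRNAs listed for both, 7.24% were higher and 6.68% lower by this rule. The fold of 65.1 came from 1 read against 0, where no ratio can be given, and that of 2.33 from 2 reads against 1, so the rule rests on the pair of replicate 2 for both, and hsa-miR-130a-3p led to the choice of the family. Under TMM scaling, or with hsa-miR-182-5p left out, hsa-miR-130b-3p alone of the members still passed as higher, and under TMM hsa-miR-454-3p passed as lower. Of the 539 miRNAs, 28 were then higher and 54 lower under TMM, and 29 and 49 with hsa-miR-182-5p left out.

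Over both pairs, the quasi-likelihood fit of edgeR, blocked on the replicate number, called 0% of 384 miRNAs for -G EV against control EV. Before adjustment 5 of the 384 had p under 0.05 (DESeq2 6, limma 13), and DESeq2 and limma also called 0 after it. For the members its estimates are given without a test, since this difference led to their choice. The log2 fold change was 1.82 (SE 1.18) for hsa-miR-130a-3p and 1.81 (SE 1.32) for hsa-miR-130b-3p, the latter 3.82 with limma and 6.02 without replicate 2, where it rests on 1 read against 0. It was -0.20 (SE 1.45) for hsa-miR-301a-3p and -0.30 (SE 1.14) for hsa-miR-454-3p. The median was 0.81 over the 4 members and 0.20 over the 384, or 0.68 and -0.14 with TMM scaling. Without hsa-miR-130a-3p, which led to the choice of the family, the members' median was -0.20, or -0.29 with TMM scaling.

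The difference between the replicates was not the comparison used to choose the members, and it was tested. The rise of hsa-miR-130a-3p that led to the choice rested on replicate 2, however. This miRNA had 265 and 796 reads there, and 1 and 2 in replicate 1. The choice may thus have favoured a miRNA high in replicate 2, so its p is not independent of the choice. In the same fit, with the medium as the other term, hsa-miR-130a-3p was higher in replicate 2 by 4.87 on the log2 scale (SE 1.29, edgeR adjusted p 0.00247). Hsa-miR-454-3p was not called, with a log2 difference of 2.09 (SE 1.20, edgeR adjusted p 0.272). No p is given for hsa-miR-130b-3p, with 0 and 1 reads in replicate 1, or for hsa-miR-301a-3p, with 0 in both, since they entered the fit through replicate 2. Of the 384 miRNAs, 9.64% were called higher and 7.55% lower in replicate 2 (17.2% in all). Among the 154 miRNAs above 0 in all 4 libraries, where 74 were called, hsa-miR-130a-3p and hsa-miR-454-3p were the members tested, and hsa-miR-130a-3p was called, at 4.88. DESeq2 also called hsa-miR-130a-3p, while limma on log2 values called 0 of all miRNAs, members included (145 at an unadjusted p under 0.05).

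Within a medium the sizes were large and loosely bounded. Hsa-miR-130a-3p was 21.7 times higher in replicate 2 in control EV (3.86 to 859) and 36.3 times in -G EV (10.0 to 300). Hsa-miR-301a-3p, at 0 in both libraries of replicate 1, was at least 2.81-fold higher in control EV and at least 2.07-fold higher in -G EV, counting 3 reads for each 0, with exact lower limits of 2.24 and 1.64. For hsa-miR-130b-3p it was at least 2.75-fold in control EV, on the same limit (exact lower limit 2.20), and 21.6 times (3.84 to 858) in -G EV. Hsa-miR-454-3p was 5.62 times higher (1.89 to 27.5) and 3.22 times higher (1.07 to 15.9). At the shares of replicate 2, the libraries of replicate 1 would have held 21.7 and 72.6 reads of hsa-miR-130a-3p, where 1 and 2 were counted. For the family as a whole 55.4 and 111 would have been held, where 4 and 6 were counted.

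**Figure D5:**
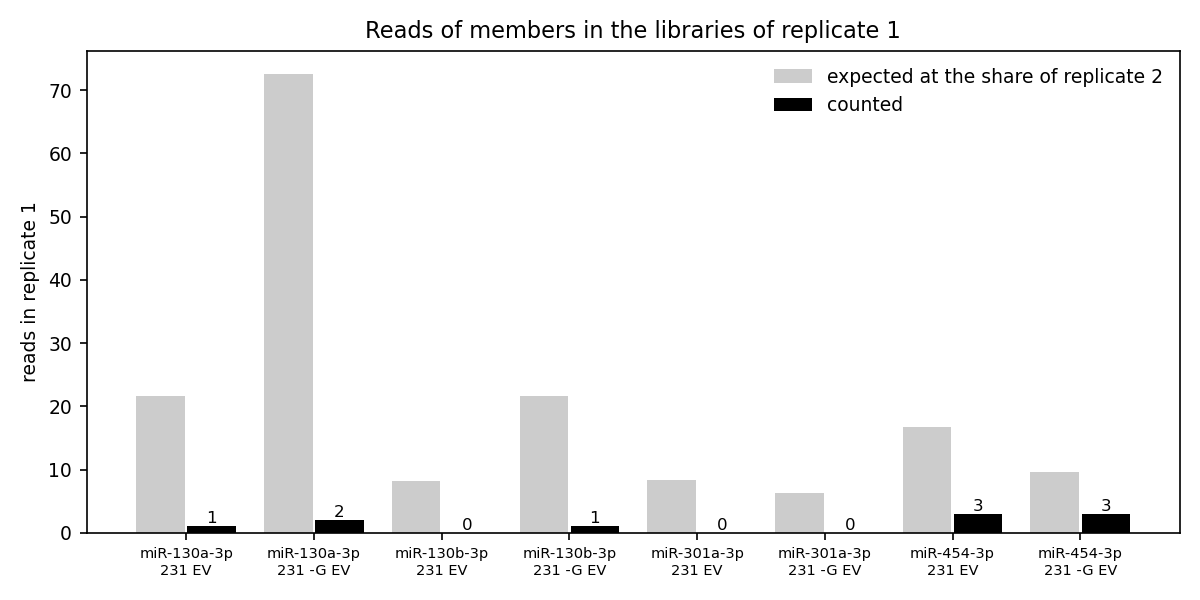
Reads of the 4 listed members in the libraries of replicate 1, counted (black) and expected if each held the share of its medium in replicate 2 (grey). The counted reads, from 0 to 3, stand below the expected ones in all 8 cases, which range from 6.21 to 72.6.

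The other strand of a hairpin, here the 5p strand, is usually degraded once the guide strand is loaded into Argonaute. In replicate 2 the 5p strands had few reads, at most 12 in a library. Hsa-miR-130b-5p had 12 reads in control EV and 2 in -G EV, against the 101 and 237 of its 3p strand. Its share of both strands was 10.6% (6.18 to 17.6) in control EV and 0.837% (0.230 to 3.00) in -G EV, so that the strands of this hairpin went opposite ways in this pair. Its own ratio was 0.219 (0.0238 to 0.986). Hsa-miR-130a-5p had 3 reads and 0 reads, the latter allowing up to 17.6 CPM. Hsa-miR-301a-5p had 4 and 3 reads. Hsa-miR-454-5p had 1 and 5 reads, or 0.483% (0.0853 to 2.69) and 4.50% (1.94 to 10.1) of both strands of its hairpin. Hsa-miR-301b-5p had 0 in both. In replicate 1, hsa-miR-130b-5p and hsa-miR-301a-5p were listed at 0 in both libraries, and the other 3 were not listed.

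For the same seed beyond the members, hsa-miR-3666, from an intron of FOXP2 on chromosome 7, was seen in replicate 1 alone: control EV held 0 reads of it, -G EV held 2. Hsa-miR-4295 was not listed for replicate 1 or replicate 2, so no value can be given. The sequence of hsa-miR-3666 is shown to set it beside the members, and it matched hsa-miR-130b-3p over the first 8 bases.
hsa-miR-3666: cAGUGCAAguguagaugccga

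The 5 miRNAs of related seeds read the same letters shifted by 1 base. They are hsa-miR-148a-3p, hsa-miR-148b-3p and hsa-miR-152-3p, with CAGUGCA, and hsa-miR-19a-3p and hsa-miR-19b-3p, with GUGCAAA. In replicate 2 all 5 ratios were above 1, from 1.32 to 2.04, and 4 of 5 intervals lay above 1. So did 11.3% of all miRNAs with a read, many of them with few reads. Of the 127 miRNAs with at least 100 reads over the pair, 51.2% had a ratio above 1, and the upper quartile was 1.48. Each of the 5 ratios lay under 2.44, the lower bound for hsa-miR-130b-3p. The highest was that of hsa-miR-19b-3p, known as a driver of growth, with 571 and 885 reads and a ratio of 2.04 (1.83 to 2.27). In replicate 1 the ratios of hsa-miR-148b-3p (0.944), hsa-miR-19a-3p (0.786) and hsa-miR-19b-3p (0.590) were below 1, each with an interval that spanned 1, and that of hsa-miR-152-3p was 1.65, or 0.832 with totals that leave out hsa-miR-182-5p. Hsa-miR-148a-3p had 125 and 1140 reads in replicate 1 and 797 and 944 in replicate 2. It was the 1 miRNA of this list with over 10 reads in each library, at 6795 and 73091 CPM in replicate 1 and 3543 and 5524 CPM in replicate 2. Its ratio in replicate 1 was 10.8, or 5.42 with totals that leave out hsa-miR-182-5p. Its log2 difference between the replicates was -2.34 (SE 0.95, edgeR adjusted p 0.0743), while hsa-miR-19b-3p was higher in replicate 2 by 5.34 (SE 1.26, edgeR adjusted p 0.000500). Hsa-miR-148b-3p (1.91), hsa-miR-152-3p (-1.70) and hsa-miR-19a-3p (2.92) were, like hsa-miR-148a-3p, not called, with edgeR adjusted p of 0.219, 0.415 and 0.0795.

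The miRNAs most like hsa-miR-130a-3p over the 4 libraries were sought by the distance between centred log2(CPM + 1) values, over 154 miRNAs above 0 in every library. The nearest were hsa-miR-30e-5p (1.44), hsa-miR-23a-3p (1.52), hsa-miR-93-5p (1.55), hsa-miR-16-5p (1.58) and hsa-miR-19b-3p (1.67), where the median distance was 4.90. Hsa-miR-454-3p was at 3.33, and 43 miRNAs were nearer. The distance was taken over these 4 libraries, so the levels of these miRNAs follow from how they were chosen.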

How the data were processed

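Members and lists were chosen with earlier results of these data known. Per the study's methods, which describe the NEBNext libraries, reads were trimmed, cleared of other small RNA classes and matched to miRBase, and the submitters' processing notes name hg38. The authors deposited whole-number counts per miRNA, beside values that the file headers call CPM for replicate 1 and TPM for replicate 2. Deposited CPM and TPM both equalled the count over the library total times 1000000, within 0.01, so counts were used. Replicate 1 listed 1315 miRNAs and replicate 2 listed 810 named and 33 predicted ones, 539 of them in both. A miRNA not listed was treated as unknown.

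The main test was edgeR 4.0.16 (R 4.3.3), quasi-likelihood, on counts with library totals, for the 384 miRNAs listed for both replicates and above 0 in at least 2 libraries, with medium and replicate number as terms. Tests were two-sided, with Benjamini-Hochberg adjustment over all 384, and miRNAs were called at 0.05 where the log2 fold change was also above 1 in size. DESeq2 1.42.0 and limma 3.58.1 were alternatives. The pairing came from the labels, which give replicate 2 another library kit. After removal of the group means, libraries sharing a number correlated at 0.59. Intervals used SciPy 1.17.1.

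The miRNAs named were the members, their other strands, 2 further miRNAs of the same seed, 5 of a shifted seed, the 5 nearest to hsa-miR-130a-3p and hsa-miR-182-5p. Alternatives covered scaling, filter, tool, pseudocount, block and left-out replicates.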

Additional observations from a re-analysis of the deposited data

Results flagged for a closer look

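Of the miRNAs of the family list that were listed for 1 replicate alone, and so stood outside the tests, 3 had more reads in -G EV than in control EV. Hsa-miR-301b-3p had 7 reads in -G EV against 2 in control EV of replicate 2, a ratio of 4.61 (0.877 to 45.5), and hsa-miR-454-5p had 5 against 1, a ratio of 6.58 (0.737 to 311). Hsa-miR-3666 had 2 against 0 in replicate 1, which is under the limit of 3 reads. Each interval, of counting error, included no change. Hsa-miR-130a-5p went the other way, with 0 reads in -G EV against 3 in control EV of replicate 2.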

How the results depend on the processing

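With the replicate block, edgeR called 0 miRNAs for the medium, and 0 with no replicate block. It called 1 when miRNAs above 0 in at least 1 library were tested and 1 with totals that leave out hsa-miR-182-5p, neither of them a member. For the replicates it called 66, against 0 with limma and 120 with no medium term. By the 1.5-fold rule, 2 members were higher, and 1 with a pseudocount of 100, under TMM scaling, with hsa-miR-182-5p left out, or among miRNAs above 0 in all 4 libraries. Of all miRNAs, 39 were higher and 36 lower, or 15 and 4 with a pseudocount of 100, 12 and 7 among those above 0 in all 4 libraries, and 18 lower with a pseudocount of 10. TMM scaling gave 28 higher and 54 lower. With either replicate left out, the counts were 117 to 182 higher and 101 to 156 lower. The family ratio of 2.36 in replicate 2 was 1.34 without hsa-miR-130a-3p, and 3.12 and 0.741 for the chromosome 22 and chromosome 17 loci, sums added after seeing the data. Without hsa-miR-130a-3p in the family, hsa-miR-130b-3p, hsa-miR-301a-3p and hsa-miR-454-3p made up 24.5%, 25% and 50% of its reads in control EV and 56.7%, 16.3% and 25.4% in -G EV of replicate 2. Member log2 fold changes for the medium kept their direction in 32 of 34 alternatives, the exceptions being hsa-miR-301a-3p (0.00) and hsa-miR-454-3p (0.24) without replicate 2, while hsa-miR-130b-3p went from 1.81 to 3.82 with limma and to 6.02 without replicate 2. Those for the replicates kept it in 34 of 34. For hsa-miR-130b-3p and hsa-miR-301a-3p, which entered the fit through replicate 2, that direction was set in advance and lends no weight. Ratios kept their direction in 12 of 14, the exceptions being hsa-miR-454-3p in replicate 1 under both other scalings. The cause of these shifts was not tested. Depth in replicate 1, at most 3 reads a member, limits every statement across the pairs.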
